A study of Mus musculus with 8 samples.

Results

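The genes described here are 51 nuclear genes of the mitochondrial respiratory chain. They were chosen by name as subunits of complexes I to IV or as cytochrome c, with no threshold on a measured value. Complex I holds 27 of them, complex II 4, complex III 7 and complex IV 12, and Cycs, for cytochrome c, is the remaining member. The name list covers complexes I to IV only, so 17 genes of the ATP synthase (complex V) were taken as a separate pathway list. All 51 members had a probe that was well above background on each of the 8 arrays, out of 33619 genes and unnamed features tested, of which 18164 carry a gene symbol.

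RNA was measured on 1-colour Agilent arrays in mesonephric tubules, the tubules of a transient embryonic kidney. The tubules were microdissected from toluidine blue stained frozen sections of mouse embryos of strain C57/BL6. There were 5 wild-type samples, which the design describes as senescent, and 3 samples of p21-/- embryos, which lack the cyclin-dependent kinase inhibitor p21 and are described as non-senescent. The sources used here give no embryonic stage and do not say if samples shared an embryo; a p-value therefore covers the spread between the samples alone, which may be technical.

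Oxidative phosphorylation is the process by which mitochondria turn the electrons of nutrients into ATP. Complex I takes electrons from NADH and complex II takes them from succinate, and both pass them to ubiquinone. Complex III hands them on to cytochrome c, a small mobile protein of the intermembrane space, and complex IV passes them to oxygen. Complexes I, III and IV pump protons while they do so, and the ATP synthase uses the proton gradient to make ATP. Tubule cells of the kidney rely heavily on this process for ion transport. A few core subunits are encoded by mitochondrial DNA; the nuclear genome encodes the others, together with the assembly factors that put the complexes together.

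Nuclear respiratory chain genes are known as targets of the transcription factors NRF1, GABP (an ETS family factor) and YY1. The promoters of the members were searched for short letter patterns of these factors. The windows ran from 250 bases before to 50 after each gene's start in RefSeq, assembly GRCm38.p6. Windows were given for 41 of the 51 members. The NRF1 pattern GCATGCGC, searched on both strands, lay in the windows of 6 members, or 14.6%, against 3.05% of 27025 genes with a window. An ETS pattern, CCGGAAG on either strand, lay in 10 members, or 24.4%, against 9.93% of all. The YY1 pattern AAGATGGC on either strand lay in 6 members, or 14.6%, against 3.19%. The letters TATAAA on either strand lay in 4 members, or 9.76%, against 15.7%. Of 15 genes of the ATP synthase list with windows, 20% held the NRF1 pattern, 40% the ETS pattern, 20% the YY1 pattern and 13.3% TATAAA. The first 3 of these shares were above those of the members. The members' windows were also rich in G and C, with a median of 59% against 52.7% over all promoters, and held a median of 19 CpG pairs against 7. The NRF1 and ETS patterns contain a CpG pair, so the share over all promoters is not a background matched for CpG. All of these are matches of letters, not measured binding sites, and their relation to the levels described below was not tested.

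The 100 bases that end just before the start are printed below, 5′ to 3′ along the gene's own strand, for 5 members whose levels are described in what follows; they were chosen after the matches were seen. The windows let the matched letters, in capitals, be seen in their surroundings; they hold matches within 100 bases before the start, while in other members matches lay farther upstream or after the start. It is the NRF1 pattern in Cycs (chr6:50566570-50566669, minus strand), Ndufa6 (chr15:82354292-82354391, minus strand), Ndufa8 (chr2:36049339-36049438, minus strand) and Sdhb (chr4:140961171-140961270, plus strand), and the ETS pattern, read on the opposite strand, in Sdhd (chr9:50603850-50603949, minus strand). The NRF1 pattern begins 60 bases before the start in Cycs, 83 in Ndufa6, 8 in Ndufa8 and 54 in Sdhb, and the ETS pattern begins 46 bases before it in Sdhd.
Cycs: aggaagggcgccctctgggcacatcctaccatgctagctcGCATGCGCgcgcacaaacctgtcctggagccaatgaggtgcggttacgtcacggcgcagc
Ndufa6: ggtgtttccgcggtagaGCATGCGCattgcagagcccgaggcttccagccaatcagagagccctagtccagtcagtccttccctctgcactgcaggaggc
Ndufa8: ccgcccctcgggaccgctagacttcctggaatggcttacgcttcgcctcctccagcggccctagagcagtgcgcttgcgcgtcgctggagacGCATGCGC
Sdhb: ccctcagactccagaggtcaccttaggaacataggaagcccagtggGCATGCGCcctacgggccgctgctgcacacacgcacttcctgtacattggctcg
Sdhd: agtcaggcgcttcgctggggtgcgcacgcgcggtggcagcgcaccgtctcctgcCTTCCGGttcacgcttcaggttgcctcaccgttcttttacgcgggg

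The respiratory chain genes lay more often above than below wild type in the arrays labelled p21-null, by small amounts, and no gene passed the test. A level here is the log2 of the processed spot intensity minus the 75th percentile of the same array, and a difference is the mean of the 3 arrays labelled p21-null minus the mean of the 5 wild-type arrays. Of the 51 members, 39 had a difference above 0 and 12 below it, that is 76.5% above 0 against 47.6% of all features tested. The median difference was 0.18, against -0.03 over all features, and single members ranged from -0.21 to 0.78. For 34 of the 51 members the difference was smaller than the SD between the wild-type arrays, and the 95% interval of the difference held 0 for all 51 members. For 36 members that interval lay between -1 and 1.

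By limma's moderated test with Benjamini-Hochberg adjustment, 0 of 51 members passed an adjusted p of 0.05, and the smallest adjusted p among them was 0.514; over all features the call rate was 0%. At an unadjusted p under 0.05, 0 members were higher against 6.2% of all features, and 0 were lower against 3.91%. In 5 members, or 9.8%, every array labelled p21-null was above every wild-type array, against 4.41% of all features; they were Ndufa6, Ndufa10, Sdha, Cyc1 and Cox4i1. In 0 members was every array labelled p21-null below every wild-type array, against 2.42% of all features. With 3 against 5 arrays the smallest p that an exact two-sided permutation test can give is 0.0179. In such bulk samples, fewer cells of a type and less RNA per cell cannot be told apart.

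**Figure D1:**
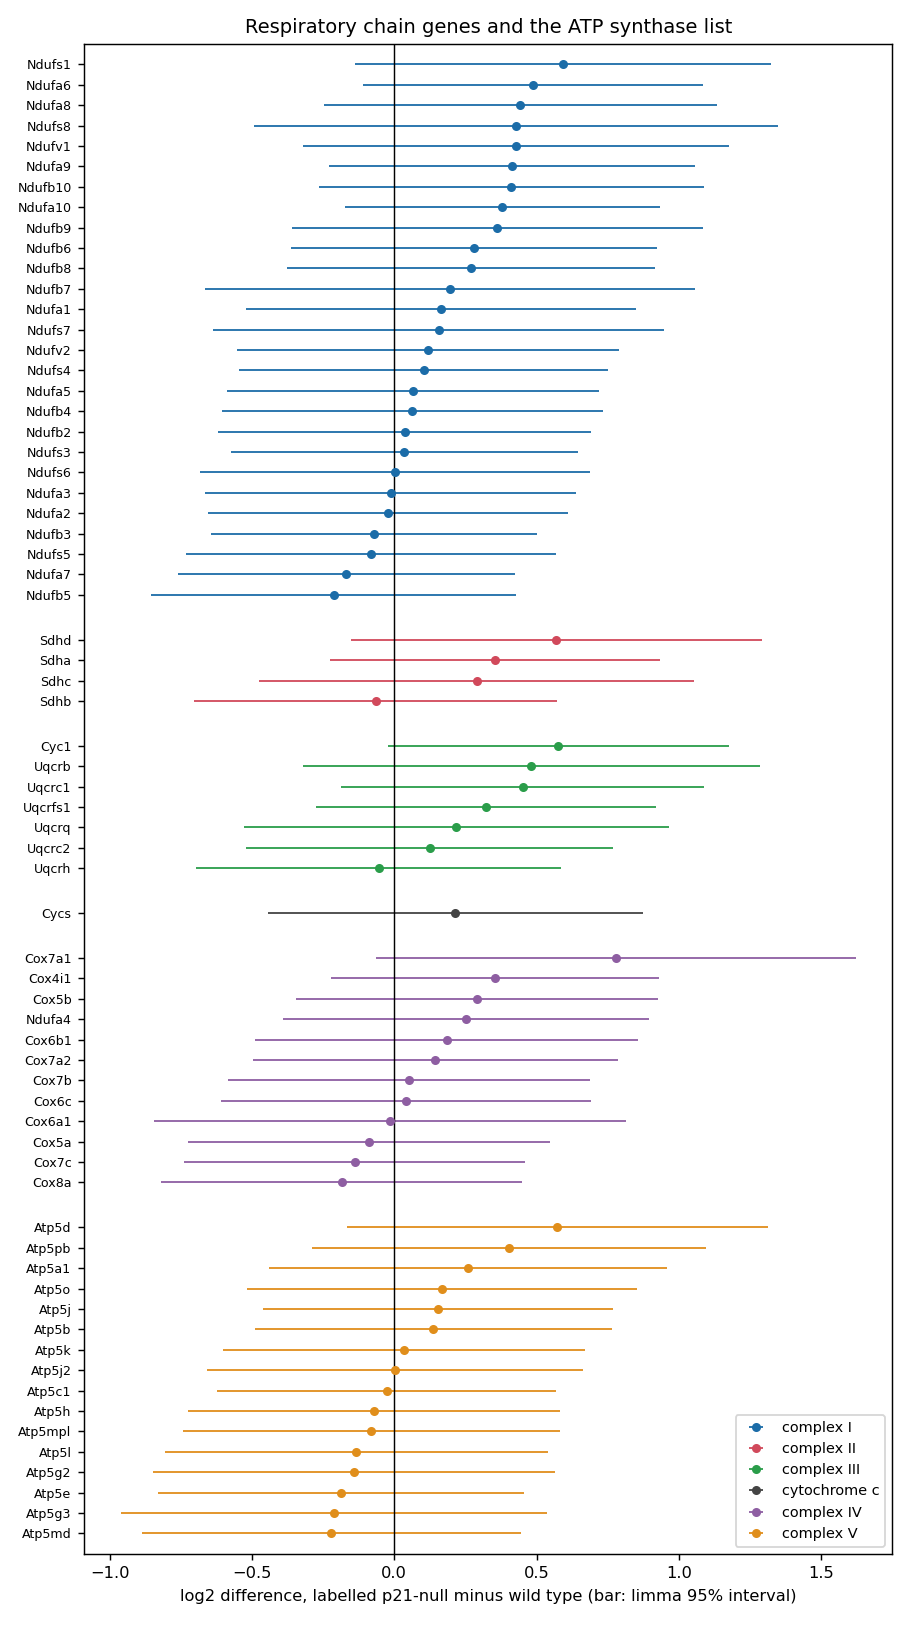
Log2 difference (labelled p21-null minus wild type, x axis) of each of the 51 respiratory chain genes and of the 16 ATP synthase genes with a probe, 1 row a gene, coloured by complex; points are differences of means and bars are limma's 95% intervals. Every bar of the 51 members crosses 0, and 39 of the 51 points lie to the right of it.

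The members moved together from array to array. When each gene was set against its own mean over the 8 arrays, the median of the 51 members on the 5 wild-type arrays, in replicate order, was 0.08, -0.28, -0.13, 0.04 and -0.05. On the 3 arrays labelled p21-null it was 0.29, -0.21 and 0.24. Labelled p21-null replicates 1 and 3 were therefore the highest arrays, while replicate 2 was lower than every wild-type array but replicate 2. Labelled p21-null replicate 1 had 47 of 51 members above their own mean, replicate 2 had 13 and replicate 3 had 44, while the wild-type arrays had 30, 2, 14, 33 and 23. Of all 33619 features, 14541, 17802 and 19600 were above their own mean on the arrays labelled p21-null. On the wild-type arrays 18564, 16811, 15711, 15217 and 19574 were. Labelled p21-null replicate 1 was above every wild-type array for 26 members and below every one for 0. Replicate 2 was above every wild-type array for 7 members and below every one for 11, and for replicate 3 the counts were 17 and 0. The shares of all features outside the wild-type range on each of these arrays were not counted, so these counts have no background beside them.

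**Figure D2:**
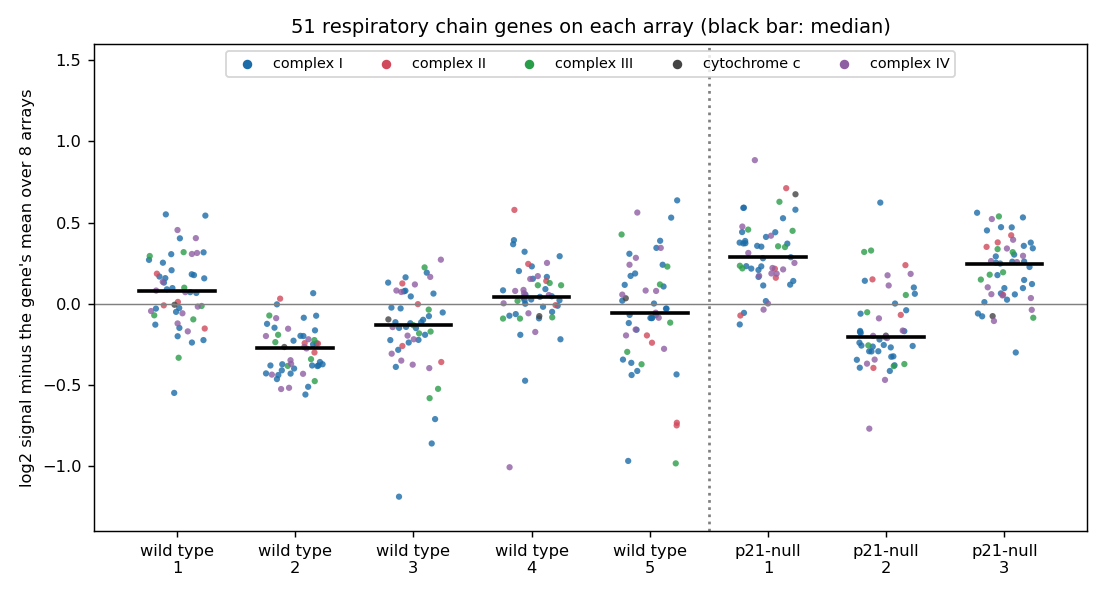
Level of each of the 51 respiratory chain genes on each array, minus that gene's mean over the 8 arrays (log2, y axis), for the 5 wild-type arrays and then the 3 arrays labelled p21-null (x axis); points are genes and black bars are medians. The highest medians are 0.29 and 0.24, in labelled p21-null replicates 1 and 3, and the lowest are -0.28 and -0.21, in the arrays with replicate number 2 of either group.

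The size of the shift depended on single arrays. Without labelled p21-null replicate 1 the median difference of the members was 0.03, with 27 of 51 above 0, while the median over all features was 0.06. Without labelled p21-null replicate 2 the members' median was 0.35, with 46 of 51 above 0. The arrays lay on 3 slides, each with both groups, and the direction differed between them. On slide 1, labelled p21-null replicate 1 was above the mean of wild-type replicates 1 to 3 for 49 members and below it for 2, with a median difference of 0.45. On slide 2, labelled p21-null replicate 2 was above wild-type replicate 4 for 12 members and below it for 39, with a median of -0.26. On slide 3, labelled p21-null replicate 3 was above wild-type replicate 5 for 35 members and below it for 16, with a median of 0.23. Over all features the 3 medians were -0.17, 0.13 and 0.02, so on slides 1 and 2 the members lay on the other side of 0 from the bulk of features. That bulk is dimmer than the members, and the spread of levels differed between arrays. The log2 median and 75th percentile were 8.72 and 11.12 on labelled p21-null replicate 1, and 8.52 and 10.66 on wild-type replicate 1. On slide 2 they were 9.12 and 11.22 on labelled p21-null replicate 2, and 9.30 and 11.59 on wild-type replicate 4. The part of brightness and spread in these signs was not tested. These differences within a slide have 1 array labelled p21-null each and no test.

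**Figure D3:**
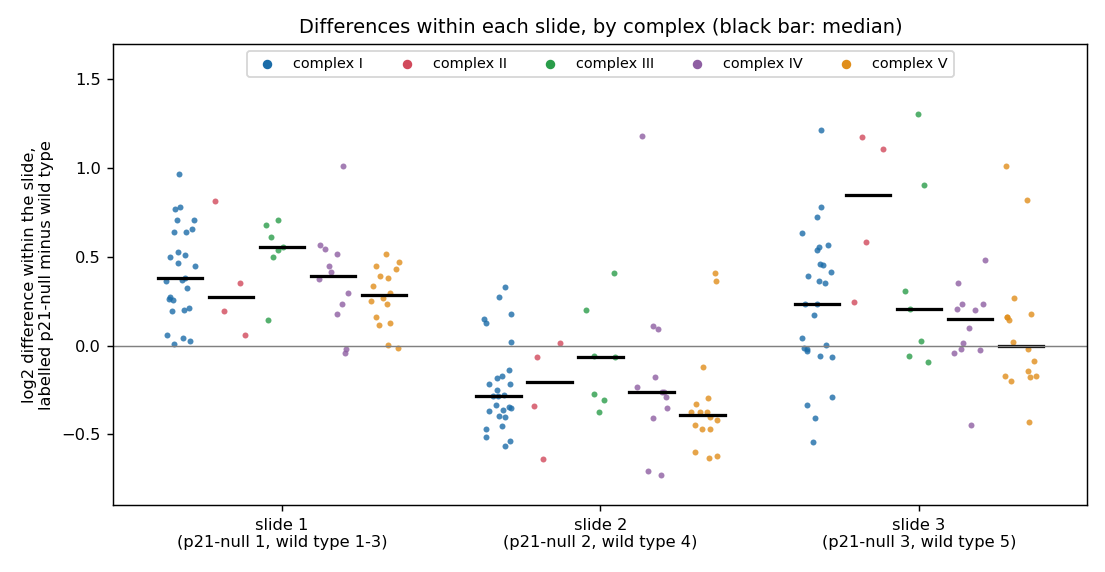
Log2 difference within each of the 3 slides (labelled p21-null array minus the wild-type arrays of that slide, y axis), by complex; points are genes and black bars are medians. Complex I is above 0 for 27 of 27 genes on slide 1, for 6 on slide 2 and for 18 on slide 3.

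In 8 members the difference was above 0 on all 3 slides, or 15.7%, against 15.8% of all features. They were Ndufs8, Ndufa6, Ndufa9, Ndufa10, Sdha, Cyc1, Cox4i1 and Cox7a1. In 1 member, Cox8a, it was below 0 on all 3, or 1.96% against 15.8%.

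Several marker sets outside the respiratory chain also differed in mean level between the groups, although none of their genes passed an adjusted p of 0.05 by limma. The sets were chosen with earlier results of these data known, so their counts describe these arrays and are not independent support. Liver markers had a higher mean level in the arrays labelled p21-null for 13 of 13 genes. Of these, 11 were at an unadjusted limma p under 0.05, against 6.2% of all features that were higher. That share stands beside the other counts of higher genes here too. The mean level of the liver markers ranged from -0.50 to 3.34 in wild type and from 3.09 to 4.36 in the arrays labelled p21-null. Erythroid markers were higher for 9 of 12 genes measured, 7 of them at an unadjusted p under 0.05, with means of 2.04 to 3.93 and 3.96 to 4.61. Macrophage markers were higher for 9 of 11, 6 of them at an unadjusted p under 0.05, with means of -0.64 to 0.85 and 0.68 to 1.33. Genes of S phase and mitosis were higher for 12 of 12, 7 of them at an unadjusted p under 0.05, with means of 0.89 to 1.61 and 1.82 to 2.43. Markers of the nephric duct and tubule, the labelled tissue, were lower for 14 of 18, with means of -2.55 to -0.06 and -2.53 to -1.82. Of these, 2 were at an unadjusted limma p under 0.05, against 3.91% of all features that were lower. Ret and Sim1, among the lower genes, were not well above background in the arrays labelled p21-null. Neural and chromaffin markers were lower for 11 of 12, 3 of them at an unadjusted p under 0.05, with means of -2.60 to -0.65 and -3.13 to -2.54. Markers of stroma and smooth muscle were lower for 9 of 12, 0 of them at that threshold. Among these 9, Myh11 had a value on wild-type replicate 5 alone of the wild-type arrays. Means of that set would not cover the same genes on every array and are not given. The part of these sets in the respiratory chain values was not tested. The brighter of 2 probes kept for Cdkn1a, the gene of p21, gave 2.49, 2.52, 0.44, 1.85 and 1.11 on the wild-type arrays. It gave 2.11, 0.96 and 1.40 on those labelled p21-null, so the groups overlapped and the level of this probe did not mark the deletion. The other probe is not described here. Whether either probe lies in the deleted part is not stated in the sources used here.

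Complex I is the largest of the complexes, and its 27 genes had a median difference of 0.16, with 21 above 0 and 6 below. Leaving out labelled p21-null replicate 1 gave a median of 0.03, and leaving out replicate 2 gave 0.28. Its smallest adjusted p was 0.604. The N module is the part that oxidises NADH, and 5 of its 6 genes were above 0, with a median of 0.11. Ndufs1, the largest iron-sulphur subunit of this module, measured 1.25, 1.03, 0.42, 1.37 and 1.21 in wild type and 1.87, 1.24 and 1.84 in the arrays labelled p21-null, here and in what follows in the order of the replicate numbers. Labelled p21-null replicates 1 and 3 were above all wild-type arrays, and replicate 2 lay within their range. The difference was 0.59 ± 0.32 (SE), a 1.51-fold ratio, with an adjusted p of 0.607 by limma, the widest difference in complex I.

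Ndufv1, which binds NADH and the flavin FMN, measured 3.28, 3.10, 2.77, 3.43 and 4.01 in wild type and 3.71, 3.58 and 3.95 in the arrays labelled p21-null. The highest value of all was in wild-type replicate 5, so the groups overlapped. Its difference was 0.43 ± 0.33 (SE), with a limma adjusted p of 0.750. Ndufv2, the iron-sulphur partner of Ndufv1, differed by 0.12 ± 0.30 (SE), and Ndufs4, an accessory subunit whose loss causes Leigh-like disease in mice, by 0.10 ± 0.29 (SE). The remaining genes of the module, Ndufs6 and Ndufa2, had differences of -0.02 to 0.00.

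The Q module carries electrons on to ubiquinone, and 6 of its 7 genes were above 0, with a median of 0.16. Ndufa6, an accessory subunit of the LYR family, is one of the members printed above with an NRF1 pattern. It measured 1.96, 1.77, 2.05, 2.18 and 2.11 in wild type and 2.64, 2.20 and 2.67 in the arrays labelled p21-null. Every array labelled p21-null was above every wild-type array, with replicate 2 only just above wild-type replicate 4. The difference was 0.49 ± 0.26 (SE), or 1.40-fold; the exact permutation p was 0.0179, the smallest possible, and the limma adjusted p 0.604.

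Ndufa9, an accessory subunit that helps hold the Q module to the membrane arm, measured 3.40, 2.80, 3.12, 3.12 and 3.33 in wild type and 3.89, 3.25 and 3.57 in the arrays labelled p21-null. Replicate 2 of the latter lay below wild-type replicates 1 and 5. The difference was 0.41 ± 0.29 (SE), with an exact permutation p of 0.0714 and a limma adjusted p of 0.705. Ndufs8, an iron-sulphur subunit of the electron path, measured 0.61, -0.02, -0.98, 0.50 and 0.12 in wild type and 0.08, 0.83 and 0.51 in the arrays labelled p21-null. Here labelled p21-null replicate 2 was the highest of all 8 arrays and replicate 1 the lowest of its group, unlike the order of most members. Ndufa7, an accessory subunit, lay on the other side of 0, with a difference of -0.17 ± 0.26 (SE). The other 3 genes of the module, Ndufs3, Ndufs7 and Ndufa5, had differences of 0.04 to 0.16.

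The membrane arm pumps protons, and its nuclear subunits surround a core encoded by mitochondrial DNA. Of its 14 nuclear genes listed here 10 were above 0, with a median of 0.18. Ndufa10 measured 2.28, 2.21, 2.31, 2.19 and 2.34 in wild type, a narrow spread with an SD of 0.063, and 2.76, 2.47 and 2.70 in the arrays labelled p21-null. The groups did not overlap. The difference was 0.38 ± 0.24 (SE), or 1.30-fold, with an exact permutation p of 0.0179 and a limma adjusted p of 0.676; limma's SE borrows from the spread of all features and is wider than this gene's own spread would give.

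Ndufa8, an intermembrane space subunit with an NRF1 pattern next to its start, measured 1.65, 1.76, 1.96, 2.59 and 2.20 in wild type and 2.43, 2.34 and 2.65 in the arrays labelled p21-null. Wild-type replicate 4 lay among the values of the other group. Its difference was 0.44 ± 0.30 (SE), with a limma adjusted p of 0.704. Ndufb10 measured 2.53, 2.32, 2.65, 2.88 and 2.24 in wild type and 3.27, 2.51 and 3.02 in the arrays labelled p21-null, a difference of 0.41 ± 0.30 (SE). Its replicate 2 sat inside the wild-type range and the other pair of arrays above it. Ndufb9, another accessory subunit of the arm, measured 3.05, 2.42, 2.59, 3.0 and 3.15 in wild type and 3.39, 2.71 and 3.51 in the arrays labelled p21-null. There too replicate 2 lay within the wild-type range, and replicates 1 and 3 above it.

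Ndufb5 had the lowest difference of all members, at -0.21 ± 0.28 (SE), and is named here after its values were seen. It measured 3.18, 2.67, 3.13, 3.37 and 3.29 in wild type and 3.19, 2.81 and 2.75 in the arrays labelled p21-null. All 3 of these lay within the wild-type range. The remaining 9 genes of the arm differed by -0.08 to 0.28, with 6 above 0 and 3 below, and a smallest limma adjusted p of 0.825.

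Complex II, succinate dehydrogenase, is also an enzyme of the TCA cycle and has no subunit encoded by mitochondrial DNA. Its 4 genes had a median difference of 0.32, with 3 above 0. Sdha, the flavoprotein that oxidises succinate, measured 2.47, 2.18, 2.22, 2.62 and 2.24 in wild type and 2.64, 2.63 and 2.83 in the arrays labelled p21-null. There was no overlap between the groups, but wild-type replicate 4 lay just below labelled p21-null replicates 1 and 2. The difference was 0.35 ± 0.26 (SE), with an exact permutation p of 0.0357 and a limma adjusted p of 0.726.

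Sdhb, the iron-sulphur subunit, measured 3.68, 3.25, 3.62, 3.74 and 3.30 in wild type and 3.71, 3.10 and 3.55 in the arrays labelled p21-null. The lowest array of all was labelled p21-null replicate 2, and the difference was -0.07 ± 0.28 (SE). A second, dimmer probe of Sdhb differed by 0.27, so its 2 probes stood on opposite sides of 0. Sdhd, a membrane anchor whose promoter holds the ETS pattern printed above, measured 1.0, 1.02, 0.63, 0.98 and 0.24 in wild type and 1.70, 0.92 and 1.41 in the arrays labelled p21-null. Replicate 2 lay within the wild-type range, and the difference was 0.57 ± 0.32 (SE), or 1.48-fold, with a limma adjusted p of 0.621. Sdhc, the other anchor, measured 1.69, 1.60, 1.84, 2.42 and 1.11 in wild type and 1.77, 2.08 and 2.22 in the arrays labelled p21-null. Its highest value was in wild-type replicate 4, and its difference was 0.29 ± 0.34 (SE).

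Complex III, the cytochrome bc1 complex, had 6 of 7 genes above 0 and a median difference of 0.32. Cyc1, the cytochrome c1 that passes electrons to cytochrome c, had the smallest p of all members. It measured 2.09, 2.04, 2.29, 2.55 and 2.05 in wild type and 2.64, 2.75 and 2.96 in the arrays labelled p21-null. The groups did not overlap. The difference was 0.58 ± 0.27 (SE), or 1.49-fold, with an exact permutation p of 0.0179 and a limma adjusted p of 0.514; its 95% interval ran from -0.02 to 1.18.

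Uqcrc1, a core protein of the matrix side, measured 3.60, 3.33, 3.09, 3.58 and 3.90 in wild type and 4.02, 3.99 and 3.85 in the arrays labelled p21-null. These 3 values sat close together, and 1 of them lay below wild-type replicate 5. The difference was 0.45 ± 0.28 (SE), with a limma adjusted p of 0.665. Uqcrb, a ubiquinone-binding subunit, measured 2.82, 2.43, 2.32, 2.52 and 1.52 in wild type and 3.13, 2.45 and 2.82 in the arrays labelled p21-null. Wild-type replicate 5 was the lowest array. Its 3 probes differed by 0.48, 0.45 and 0.48, close to one another. Uqcrfs1, the Rieske iron-sulphur protein, measured 3.19, 2.81, 3.25, 3.40 and 3.17 in wild type and 3.64, 3.34 and 3.48 in the arrays labelled p21-null. The groups overlapped only where wild-type replicate 4 exceeded replicate 2 of the other group. The other 3 genes, Uqcrc2, Uqcrq and Uqcrh, differed by -0.05 to 0.22.

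Cycs encodes cytochrome c, which besides its place in the chain can trigger caspase activation when it leaves the mitochondrion. It measured 3.32, 3.06, 3.23, 3.25 and 3.36 in wild type, with an SD of 0.11, and 4.0, 3.13 and 3.25 in the arrays labelled p21-null. Only labelled p21-null replicate 1 stood above the wild-type range. Its difference was 0.22 ± 0.29 (SE), with a limma adjusted p of 0.879, and without that replicate it was -0.05.

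Complex IV, cytochrome c oxidase, had 8 of 12 genes above 0 and a median difference of 0.10; leaving out labelled p21-null replicate 1 gave -0.02, and leaving out replicate 2 gave 0.31. Cox4i1, the ubiquitous form of the largest nuclear subunit, measured 3.98, 3.75, 3.65, 4.11 and 3.97 in wild type and 4.21, 4.20 and 4.32 in the arrays labelled p21-null. No wild-type value reached those of the other group. The difference was 0.35 ± 0.25 (SE), or 1.28-fold, with an exact permutation p of 0.0536 and a limma adjusted p of 0.722. Cox5b, a zinc-binding matrix subunit, measured 3.57, 3.07, 3.28, 3.59 and 3.87 in wild type and 3.76, 3.70 and 3.85 in the arrays labelled p21-null. Wild-type replicate 5 was the highest of the 8 arrays.

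Ndufa4, named for complex I but found in complex IV, measured 2.78, 2.58, 2.60, 3.12 and 3.19 in wild type and 3.17, 2.86 and 3.29 in the arrays labelled p21-null, a difference of 0.25 ± 0.29 (SE). The groups overlapped through wild-type replicates 4 and 5. Cox8a, the ubiquitous form of the smallest subunit, measured 5.04, 4.37, 4.44, 4.69 and 4.98 in wild type and 4.60, 4.43 and 4.53 in the arrays labelled p21-null. Its 3 values in the latter lay inside the wild-type range, and the difference was -0.19 ± 0.28 (SE). The other 5 genes, Cox5a, Cox6a1, Cox6b1, Cox6c and Cox7b, differed by -0.09 to 0.18.

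Subunit 7a has a form typical of heart and skeletal muscle, Cox7a1, and a widespread form, Cox7a2. Cox7a1 had the widest difference of the 51 members. It measured -1.16, -2.05, -2.01, -2.62 and -1.70 in wild type and -0.73, -1.43 and -1.22 in the arrays labelled p21-null. Replicate 1 of wild type lay within the values of the other group. The difference was 0.78 ± 0.37 (SE), or 1.72-fold, with an exact permutation p of 0.107 and a limma adjusted p of 0.537. Within slides 1, 2 and 3 it was 1.01, 1.18 and 0.48. Cox7a2 measured 4.03, 3.72, 4.27, 4.23 and 4.23 in wild type and 4.57, 3.94 and 4.21 in the arrays labelled p21-null, a difference of 0.14 ± 0.28 (SE).

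Cox7a1 was set beside other muscle forms of complex IV and beside markers of striated muscle. The mean of 14 muscle markers was -1.54, 2.76, -1.69, -1.45 and 2.09 in wild type and 0.11, -0.77 and 0.86 in the arrays labelled p21-null, so wild-type replicates 2 and 5 were the highest. Cox6a2, a muscle subunit, measured -0.99, 1.85, -0.57, -1.70 and 1.69 in wild type and -0.27, -1.62 and 0.16 in the arrays labelled p21-null. It was highest on those same wild-type arrays. Cox8b, another muscle form, measured -1.37, 0.94, -2.92, -2.32 and 0.17 in wild type and -1.55, -2.89 and -0.96 in the arrays labelled p21-null, with the same pair of arrays on top. Cox7a1 was not: it was highest on replicate 1 of each group. Cox6a2 and Cox8b were chosen for this comparison after their values were seen.

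**Figure D4:**
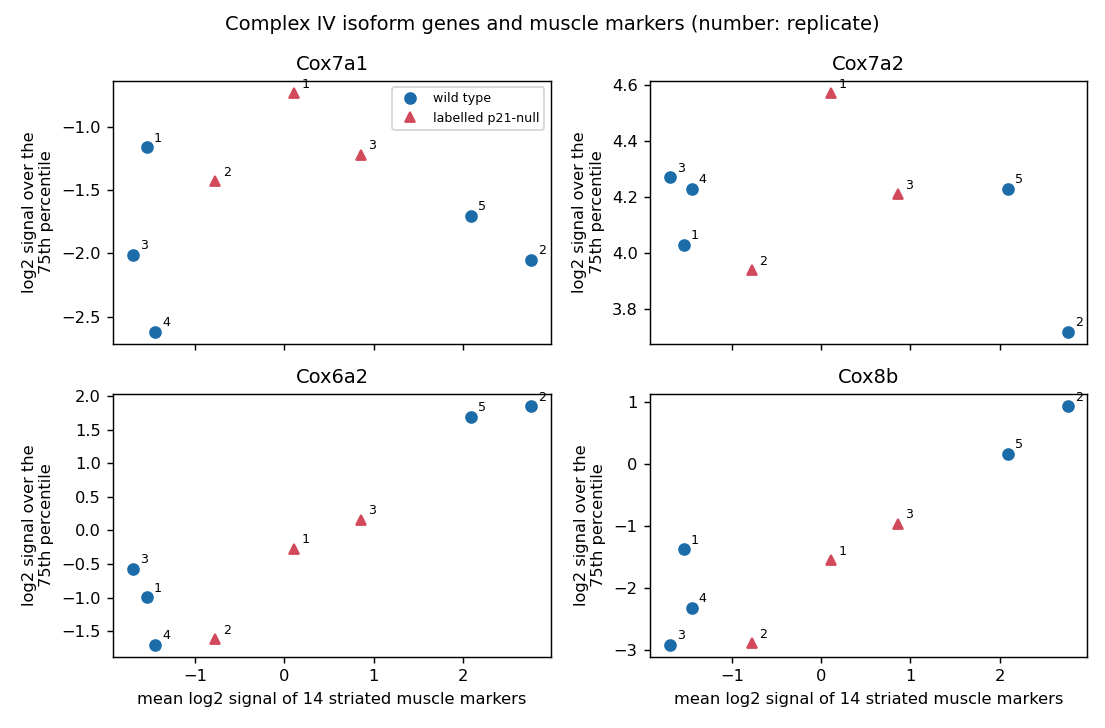
Level of complex IV isoform genes (log2 signal over the 75th percentile of the array, y axis) against the mean level of 14 striated muscle markers (log2, x axis) on the 8 arrays; 1 point an array, coloured by group and numbered by replicate. Cox6a2 and Cox8b reach 1.85 and 0.94 on wild-type replicate 2, where the muscle markers are highest at 2.76, while Cox7a1 reads -2.05 there.

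The members with more than 1 probe show how far the choice of probe matters. There were 66 member probes in all, and 12 genes had several. Of 15 second probes, 12 had a difference above 0, with a median of 0.26, against 0.07 for the brightest probes of the same genes. Cox7c, a small subunit of complex IV, was chosen for naming after its values were seen: its brightest probe differed by -0.14, and the others by 0.31 and 0.80. In Cox7c and Sdhb the probes fell on both sides of 0, and in the other genes with several probes they did not.

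Of the 16 ATP synthase genes with a probe, 8 were above 0 and 8 below, and the median difference was -0.01. That median was 0.11 when all probes of a gene were averaged; leaving out labelled p21-null replicate 1 gave -0.15, and leaving out replicate 2 gave 0.13. The difference between this list and the members was not tested. It had the same order of slides as the members, with 15 of 16 genes above 0 on slide 1, 2 on slide 2 and 8 on slide 3. Atp5d, the delta subunit of the central stalk, measured 2.60, 2.55, 1.73, 2.69 and 1.92 in wild type and 2.77, 3.10 and 2.74 in the arrays labelled p21-null. The groups did not overlap; the difference was 0.57 ± 0.33 (SE), with a limma adjusted p of 0.625. Atp5a1, the alpha subunit of the catalytic head, measured 5.09, 4.65, 4.91, 5.19 and 5.71 in wild type and 5.27, 5.56 and 5.28 in the arrays labelled p21-null. Its highest value was in wild-type replicate 5. Atp5pb, of the peripheral stalk, differed by 0.40 ± 0.31 (SE). Atp5md and Atp5e, both small subunits, differed by -0.22 ± 0.29 (SE) and -0.19 ± 0.28 (SE). The other 11 genes of the list differed by -0.21 to 0.17.

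Other genes of the pathway were counted in the same fit, and none passed an adjusted p of 0.05. Of 15 further nuclear subunits of complexes I, III and IV that were tested, 11 were above 0, with a median of 0.12. At an unadjusted limma p under 0.05, 1 of the 15 was higher, against 6.2% of all features. This was Cox6b2, a form of subunit 6b known from testis, which measured 2.20, 1.12, 0.62, 1.0 and 1.94 in wild type and 2.47, 2.44 and 2.99 in the arrays labelled p21-null. There was no overlap between the groups, and the difference was 1.26 ± 0.42 (SE), or 2.39-fold, with a limma adjusted p of 0.369. Cox4i2, the hypoxia-linked form of subunit 4, differed by -0.65 ± 0.42 (SE).

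Of 43 assembly factors tested, 31 were above 0, with a median of 0.16. At an unadjusted limma p under 0.05, 4 of the 43 were higher, against 6.2% of all features. These were Cox17, Ndufaf1, Ndufaf4 and Coa5, the last pair named after their values were seen. Cox17, which delivers copper for complex IV, measured 1.39, 1.08, 1.12, 1.80 and 1.50 in wild type and 2.59, 1.83 and 2.73 in the arrays labelled p21-null. All 3 of these were above all wild-type arrays, replicate 2 by little. The difference was 1.0 ± 0.32 (SE), or 2.01-fold, with an exact permutation p of 0.0179 and a limma adjusted p of 0.355. Ndufaf1, an early assembly factor of complex I, measured 0.62, 0.31, 1.06, 0.81 and 1.08 in wild type and 1.81, 1.33 and 1.58 in the arrays labelled p21-null, a difference of 0.79 ± 0.30 (SE) with no overlap. Its limma adjusted p was 0.408.

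Of 19 regulators of mitochondrial biogenesis, 13 were above 0, with a median of 0.24. At an unadjusted limma p under 0.05, 1 of the 19 was higher, against 6.2% of all features. Tfb1m, which methylates mitochondrial ribosomal RNA, measured -1.75, -1.64, -1.66, -1.87 and -1.73 in wild type, with an SD of 0.089, and -0.61, -1.31 and -0.90 in the arrays labelled p21-null. The groups did not overlap, and the difference was 0.79 ± 0.27 (SE), or 1.73-fold, with an exact permutation p of 0.0179 and a limma adjusted p of 0.380. Polg, the polymerase of mitochondrial DNA, differed by 0.54 ± 0.29 (SE).

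Of 18 genes of the TCA cycle, 13 were above 0, with a median of 0.24. At an unadjusted limma p under 0.05, 0 of the 18 were higher, against 6.2% of all features. Suclg2, the GTP-forming subunit of succinyl-CoA ligase, measured -1.13, -2.15, -3.25, -2.29 and -1.05 in wild type and -0.86, -0.96 and -0.85 in the arrays labelled p21-null. Again the groups were apart, and the wild-type spread was wide; the difference was 1.08 ± 0.50 (SE), with a limma adjusted p of 0.522. Fh1, fumarate hydratase, differed by 0.68 ± 0.32 (SE). Every array labelled p21-null was above every wild-type array in 2 of the 18 genes of the TCA cycle, against 4.41% of all features. The same held for 1 of the 15 further subunits, 4 of the 43 assembly factors, 1 of the 19 regulators and 1 of the 16 ATP synthase genes. In 0 genes of these lists was every such array below every wild-type array, against 2.42% of all features. The 13 subunits encoded by mitochondrial DNA were not matched to probes by the names used and were not analysed here.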

How the data were processed

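The deposited scanner files of the 8 arrays (1 colour, total RNA) hold, per the file headers, Agilent Feature Extraction's processed spot intensities, corrected for background by that software and not normalized between arrays. A deposited table holds log2 values, for which the submitters' processing notes name limma; its columns correlated at 0.99995 or more with normexp-corrected, quantile-normalized intensities, which settles its scale and direction, and it served as an alternative. Here log2 processed intensities were taken minus each array's 75th percentile over spots that are not controls. Outlier spots were left out and spots of a probe averaged. Probes well above background on at least 3 of 8 arrays were kept; 82.4% to 89.3% of probes were so on an array, and the number of arrays limits the precision. Accessions were matched without versions to RefSeq (GRCm38.p6), which named 26056 of 55681 probes, and the brightest probe stood for a gene.

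The comparison of the groups used lmFit and eBayes of limma 3.58.1 (R 4.3.3) with no covariate, adjusted over all 33619 features at 0.05. Single genes also had two-sided exact permutation tests, whose p-values are not adjusted. Most are given for genes picked by their limma p on the same arrays, so they are not independent support. Genes were named by smallest limma p: 4 in each of the 3 parts of complex I and in complex III, 5 in complex IV and in complex V, 2 in each other pathway list, besides complex II, Cycs, Cox7a1 and Cox7a2; genes named with values outside this rule were chosen after their values were seen. The members and lists were chosen with earlier results of these data known. The sources used here do not say if same-numbered samples are paired. Replicate 1 of each group lay on slide 1. On simulated data for this comparison (33347 genes) log2 changes of 1, 2, 3 and 4 were recovered for 0%, 20%, 56% and 78% of the genes given them. Among genes given no change, 3 were called. The changed genes were drawn from all features, whose median SE was 0.43 against 0.29 for the members, so these rates do not describe the members. Alternatives were other scalings, normexp with an offset of 50 on median intensities (mean intensities are not a column of these files), other filters, slide and replicate number as blocks, other probe rules, moderation, array weights and leaving out each array.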

Additional observations from a re-analysis of the deposited data

Results flagged for a closer look

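Of 72 values tested for a sample far from the others of its group, 2 stood out, or 2.78%; chance gives about 1 in 20. In wild type, Cox6a1, the non-muscle form of subunit 6a of complex IV, read 4.11 in replicate 5 against 3.33 to 3.49 in the other wild-type arrays; the arrays labelled p21-null read 3.76, 2.78 and 4.07. The ATP synthase genes, set against their own means over the arrays, had a median of -0.33 in wild-type replicate 2, against 0.05 to 0.20 in the other wild-type arrays.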

How the results depend on the processing

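No member passed an adjusted p of 0.05 by limma under any of 20 alternatives, and the smallest adjusted p among 44 named genes was 0.0999. Ndufaf4 and Coa5 are not among these 44. The count of members higher at an unadjusted p under 0.05 was 0 of 51 in the reported fit. It was 1 with quantile scaling, 1 with slide as a fixed block and 2 with trend and robust moderation. It was 4 with array weights (labelled p21-null replicate 3 had a weight of 3.01) and 2 with the deposited log2 values. On leaving out each array it was 0 to 1 (1 when either of wild-type replicates 1 and 4 was left out). Of all 33619 features, 2084 were higher in the reported fit, 2233 with quantile scaling and 1895 with slide as a fixed block. Of the same features, 2170 were higher with trend and robust moderation, 3358 with array weights and 2369 with the deposited values. In each of these settings the share of the members was below that of all features. Leaving out each array gave medians of 0.025 to 0.35 for all members, 0.025 to 0.28 for complex I, 0.23 to 0.44 for complex II, 0.23 to 0.43 for complex III, -0.024 to 0.31 for complex IV and -0.15 to 0.13 for complex V; labelled p21-null replicates 1 and 2 set the ends for all members, complex I, complex IV and complex V. As the mean of all probes the complex V median was 0.11. With a replicate block (replicates 1 to 3 of both groups) the members' median was 0.23 with 40 of 51 above 0, and the block changed no call; deviations of same-numbered arrays correlated at 0.064, -0.084 and -0.074.

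Of the 44 named genes, which do not include Ndufaf4 and Coa5, 37 kept their sign throughout. Sdhb was 0.027 with normexp background correction, 0.10 as the mean of its probes, 0.029 with array weights and 0.013 in the deposited table, and Cox7c was 0.32 as the mean of its probes. On leaving out each array, Sdhb ranged from -0.20 to 0.11, Ndufv2 from -0.034 to 0.28, Cycs from -0.053 to 0.38, Cox7a2 from -0.023 to 0.29, Atp5md from -0.37 to 0.018 and Atp5e from -0.31 to 0.023. The cause was not tested, beyond the construction of each alternative. The number of arrays limits what can be seen: the median 95% interval is set by an SE of 0.29 for the members, wider than their median difference.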
